A study of Danio rerio with 4 samples.

Results

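Chromatin remodellers and histone modifiers are the enzymes and reader proteins that slide or evict nucleosomes, write and erase acetyl and methyl groups on histones, and methylate DNA. Their members on the zebrafish array were taken by gene symbol: the smarc and chd remodellers, the hdac and sirt deacetylases, the kdm demethylases, the kmt, setd, smyd and prmt methyltransferases, the ezh, eed, suz and cbx genes, the dnmt and tet genes, the kat acetyltransferases and the brd bromodomain genes. To these was added the probe set that the study names smyd4. The rule gave 89 genes on 123 probe sets, of 8793 genes on 10796 probe sets with 1 annotated symbol, and each gene was represented by its brightest probe set, the one with the highest mean signal. No tet gene was among them.

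The study asked which genes lie downstream of Pou5f3 around the end of epiboly. en-pou5f3 embryos carry 1 copy of a transgene in which a heat shock promoter drives the repressor domain of Drosophila Engrailed fused to Pou5f3, and wild-type embryos were their siblings without it, all on the RW strain background. Embryos of both genotypes were kept at 37°C for 60 min at the 3-somite stage (3-ss) or at 90% epiboly, developed for a further 30 min, and gave RNA that was pooled by genotype after each embryo had been genotyped. Each of the 4 conditions (en-pou5f3 at 3-ss, wild-type at 3-ss, en-pou5f3 at 90% epiboly and wild-type at 90% epiboly) had 1 array, so no difference below has a replicate check, a standard error or a p-value. The heat shock was shared by all 4 conditions, the promoter is not confined to 1 tissue, and whole embryos were used, so that fewer cells of a type and less RNA per cell cannot be told apart. Groups follow the sample labels, which give the genotype; the tables printed with the study instead head their columns by heat shock without and with, and its supplementary methods speak of more arrays than the 4 analysed here.

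Chromatin regulators act in complexes. SWI/SNF (BAF) complexes, ISWI complexes and the Chd proteins use ATP to move nucleosomes, PRC2 places the repressive methyl mark on histone H3 that Cbx proteins of PRC1 read, and bromodomain proteins bind acetylated histones at active genes. In early zebrafish embryos much of this machinery is loaded into the egg, and Pou5f3 itself is known as a factor that opens chromatin at the onset of zygotic transcription.

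Values are MAS5 signals on a linear scale. A floor of 32.4 was set from 20 control probe sets with no target in the embryo (95th percentile over their 80 signals), lower signals were raised to it before a log2 ratio was taken, and a gene with both signals under it was not measured in that comparison. Of the 89 genes 78 were over the floor on all 4 arrays, 5 on some (cbx8a, hdac4, hdac9b, kdm4c and sirt3) and 6 on none (brd8a, cbx6b, hdac11, kdm4ab, kmt2a and prmt8b). As a measure of spread, log2 ratios of different probe sets of the same gene had an SD of 0.36 at 3-ss over 1156 genes and 0.32 at 90% epiboly over 1140 genes when the genotypes were compared. This SD was 0.25 at 3-ss and 0.19 at 90% epiboly for probe sets over the median mean signal of 240, and 0.39 and 0.37 at these stages for those under it. It holds no variation between embryos or pools.

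Across the arrays 71.3 to 74.4% of probe sets were over the floor and the trimmed mean signal lay between 498 and 499. The highest signal of the control probe sets behind the floor was 88.6 in en-pou5f3 and 35.5 in wild-type embryos at 3-ss. At 90% epiboly it was 65.5 in en-pou5f3 and 32.9 in wild-type embryos. The floor is common to all arrays and does not adjust for this difference. The pou5f3 probe set, of which the part of the gene covered is not given, had a signal of 2138 in en-pou5f3 and 1277 in wild-type embryos at 3-ss, and of 8284 in en-pou5f3 and 5473 in wild-type embryos at 90% epiboly. Of the neural plate markers 1 of 6 measured genes was 2-fold lower in en-pou5f3 embryos at 3-ss and 3 of 6 at 90% epiboly. Their summed signal was 8804 in en-pou5f3 and 14840 in wild-type embryos at 3-ss, and 12143 in en-pou5f3 and 20837 in wild-type embryos at 90% epiboly. Much of the difference was sox3, with 1923 in en-pou5f3 and 6022 in wild-type embryos at 3-ss. The study lists sox2 and sox3 among genes lowered by en-pou5f3, so their fall is no measure of neural plate tissue alone. At 3-ss and 90% epiboly sox19a had log2 ratios of −0.15 and −0.04, sox19b −0.57 and 0.38, and otx2b −0.58 and 0.20. zic2a had −0.32 at 3-ss and was among the 2-fold lower markers at 90% epiboly, with −1.39. Somite and muscle markers were 2-fold lower in 3 of 12 and 4 of 11 cases at 3-ss and 90% epiboly, endoderm markers in 0 of 5 and 1 of 6 with 1 higher at 3-ss, blood and vessel markers in 1 of 6 and 1 of 5, and yolk syncytial layer markers in 1 of 6 and 0 of 6. None of 7 enveloping layer and periderm markers and none of 5 germ cell markers differed by 2-fold between genotypes at either stage. Of the defining markers ncam1a alone was under the floor on all arrays. Of 14 heat shock genes at 3-ss 1 was lower, and of 13 at 90% epiboly 0 were. How far the differences in these markers bear on the chromatin genes was not tested.

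Most chromatin genes had nearly the same signal in both genotypes. At 3-ss smyd4 and prmt6 fell and hdac4 and brd2b rose at least 2-fold in en-pou5f3 embryos, and at 90% epiboly smyd4 alone fell. The 2 lower and 2 higher genes of 83 measured at 3-ss stand beside 1.86% of all genes lower and 1.58% higher. At 90% epiboly 1 gene of 80 was lower and 0 were higher, beside 2.27% of all genes lower and 1.1% higher. The 2-fold threshold itself lies above the SD between probe sets of one gene, so that every called gene passes this SD and gains no support from it. The shares are near the background, and smyd4 was included because the study names it. The median log2 ratio was 0.02 at 3-ss, against −0.00 for 7467 genes in all, and 0.02 at 90% epiboly, against 0.03 for 7261 genes. Within 1.5-fold lay 73 of 83 chromatin genes (88.0%) at 3-ss, against 86.4% of all genes, and 75 of 80 (93.8%) at 90% epiboly, against 88.5% of all genes.

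At the lower threshold of 1.5-fold, 7 genes were lower in en-pou5f3 embryos at 3-ss (smyd4, prmt6, prmt1, smyd2a, ezh2, suz12a and brd9) and 3 were higher (smarca2, brd2b and hdac4), beside 6.86% of all genes lower and 6.79% higher. At 90% epiboly 3 were lower (smyd4, suz12a and setd9) and 2 higher (hdac4 and brd2b), beside 6.28% and 5.26% of all genes. Lower at both stages were smyd4 and suz12a, higher at both stages were brd2b and hdac4, and 0 genes moved in opposite directions. These 2 lower and 2 higher genes of 80 stand beside 172 lower (2.44%) and 95 higher (1.35%) of 7049 genes in all. Opposite directions were rare in all genes too, with 0.312% lower at 3-ss and higher at 90% epiboly and 0.241% the reverse. With the floor added to both signals smyd4 alone passed 1.5-fold at both stages, since suz12a at 3-ss (−0.44) and hdac4 and brd2b at 90% epiboly (0.50 and 0.40) did not.

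**Figure D1:**
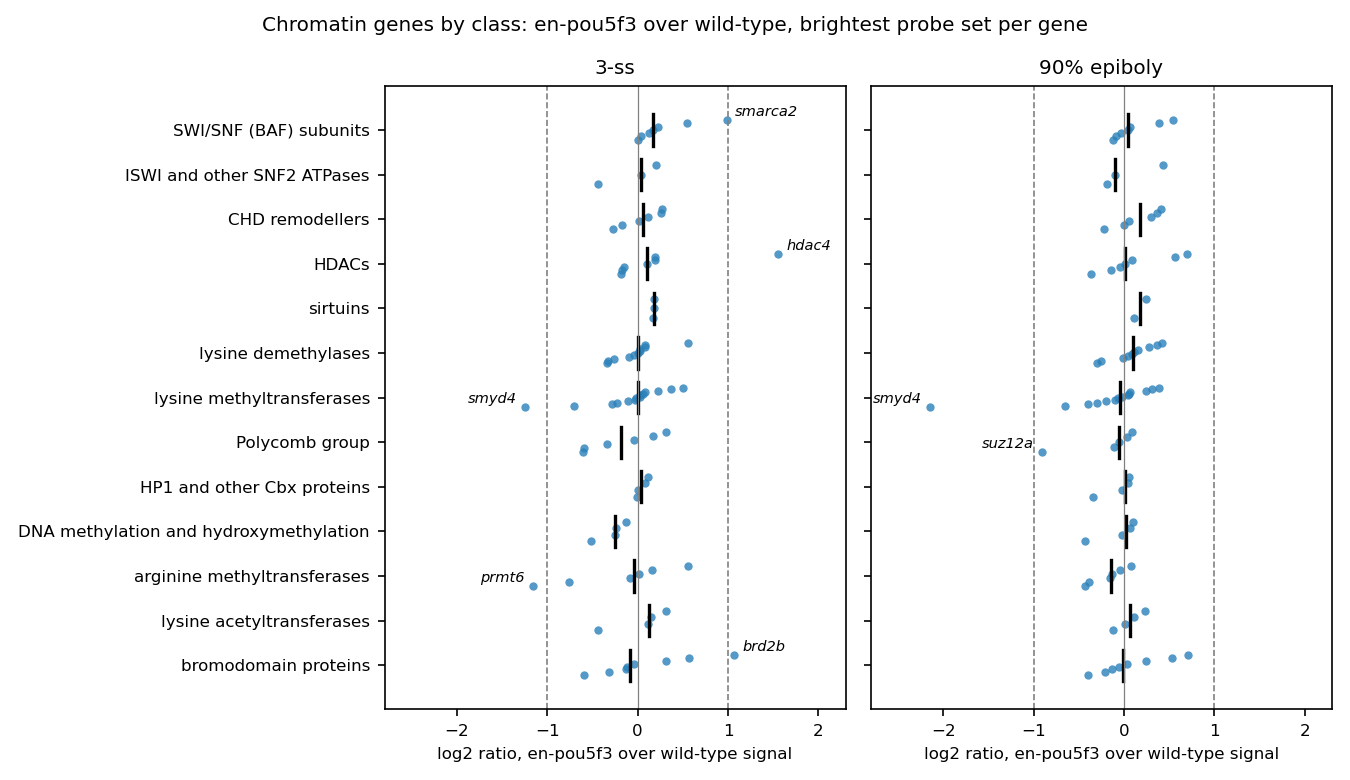
Log2 ratio between the genotypes, en-pou5f3 signal over wild-type signal (x axis), for each measured chromatin gene (point) by class (rows) at 3-ss (left) and 90% epiboly (right), 1 array per condition. Black bars are class medians and dashed lines mark 2-fold. At 3-ss smyd4 and prmt6 lie beyond the left line and hdac4 and brd2b beyond the right one, and at 90% epiboly smyd4 does at −2.15.

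Among the lysine methyltransferases, smyd4 had the largest difference between genotypes. Smyd4 belongs to the family of proteins with a split SET domain and a MYND finger, and its targets are less well known than those of Smyd1 to Smyd3. Its signal was 192 in en-pou5f3 and 455 in wild-type embryos at 3-ss, and 182 in en-pou5f3 and 805 in wild-type embryos at 90% epiboly. The en-pou5f3 arrays were thus nearly level with each other while the wild-type arrays were higher at both stages. It fell 2.37-fold at 3-ss (log2 ratio −1.24) and 4.43-fold at 90% epiboly (log2 ratio −2.15). The array annotation used here does not list that probe set and gives smyd4 to another one, whose signal was 136 in en-pou5f3 and 142 in wild-type embryos at 3-ss and 129 in en-pou5f3 and 105 in wild-type embryos at 90% epiboly. Between the genotypes it differed by −0.06 at 3-ss and 0.30 at 90% epiboly on the log2 scale. Which of them detects smyd4 was not settled, and with the annotation's probe set 1 chromatin gene was 2-fold lower at 3-ss and 0 were at 90% epiboly.

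The other lysine methyltransferases were closer to level. smyd2a, a methyltransferase of p53 and of histones, had a signal of 329 in en-pou5f3 and 536 in wild-type embryos at 3-ss, and of 433 in en-pou5f3 and 419 in wild-type embryos at 90% epiboly, so that it was 1.63-fold lower at 3-ss and level at 90% epiboly (log2 ratios −0.70 and 0.05). kmt2ca, of the family that places monomethyl marks on histone H3 at enhancers, had 316 in en-pou5f3 and 224 in wild-type embryos at 3-ss (log2 ratio 0.50), against 128 in en-pou5f3 and 130 in wild-type embryos at 90% epiboly (−0.02). At 90% epiboly setd9 was 1.58-fold lower, with a signal of 42.9 in en-pou5f3 and 67.6 in wild-type embryos, close to the floor. setd3, an actin histidine methyltransferase, had log2 ratios of −0.28 at 3-ss and 0.39 at 90% epiboly. setd4 had 0.37 at 3-ss and −0.19 at 90% epiboly, and setd6 had −0.22 and −0.40. The remaining measured genes of the class were kmt2ba, kmt2e, kmt5aa, setd7, setdb1a, setdb1b and setdb2. By their brightest probe sets they lay between −0.11 and 0.22 at 3-ss and between −0.30 and 0.31 at 90% epiboly. Dimmer probe sets fell outside these ranges, with −0.46 for kmt2e at 90% epiboly and −0.30 for setdb1a at 3-ss. For setdb2 a dim one gave bounds of −0.37 at 3-ss and 0.59 at 90% epiboly. The median of the 14 measured genes was 0.00 at 3-ss and −0.04 at 90% epiboly.

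Arginine methyltransferases place methyl groups on arginines of histones and of RNA-binding proteins. prmt6, a nuclear member that methylates the tail of histone H3, had a signal of 197 in en-pou5f3 and 438 in wild-type embryos at 3-ss. At 90% epiboly its signal was 426 in en-pou5f3 and 577 in wild-type embryos. It fell 2.23-fold at 3-ss (log2 ratio −1.15) and was 1.35-fold lower at 90% epiboly (−0.44), and the en-pou5f3 array at 3-ss was the low one of the 4. prmt1, the main source of asymmetric dimethylarginine in vertebrate cells, had 2701 in en-pou5f3 and 4567 in wild-type embryos at 3-ss and 4640 in en-pou5f3 and 6066 in wild-type embryos at 90% epiboly. With log2 ratios of −0.76 and −0.39 at these stages, it too had its lowest signal on the en-pou5f3 array at 3-ss. prmt2 ran the other way at 3-ss, with 176 in en-pou5f3 and 120 in wild-type embryos (log2 ratio 0.55), and was level at 90% epiboly (0.08). prmt3, prmt5 and prmt7 lay between −0.09 and 0.16 at 3-ss and between −0.16 and −0.05 at 90% epiboly, and prmt8b was under the floor on all arrays. Each of these genes had 1 probe set.

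**Figure D2:**
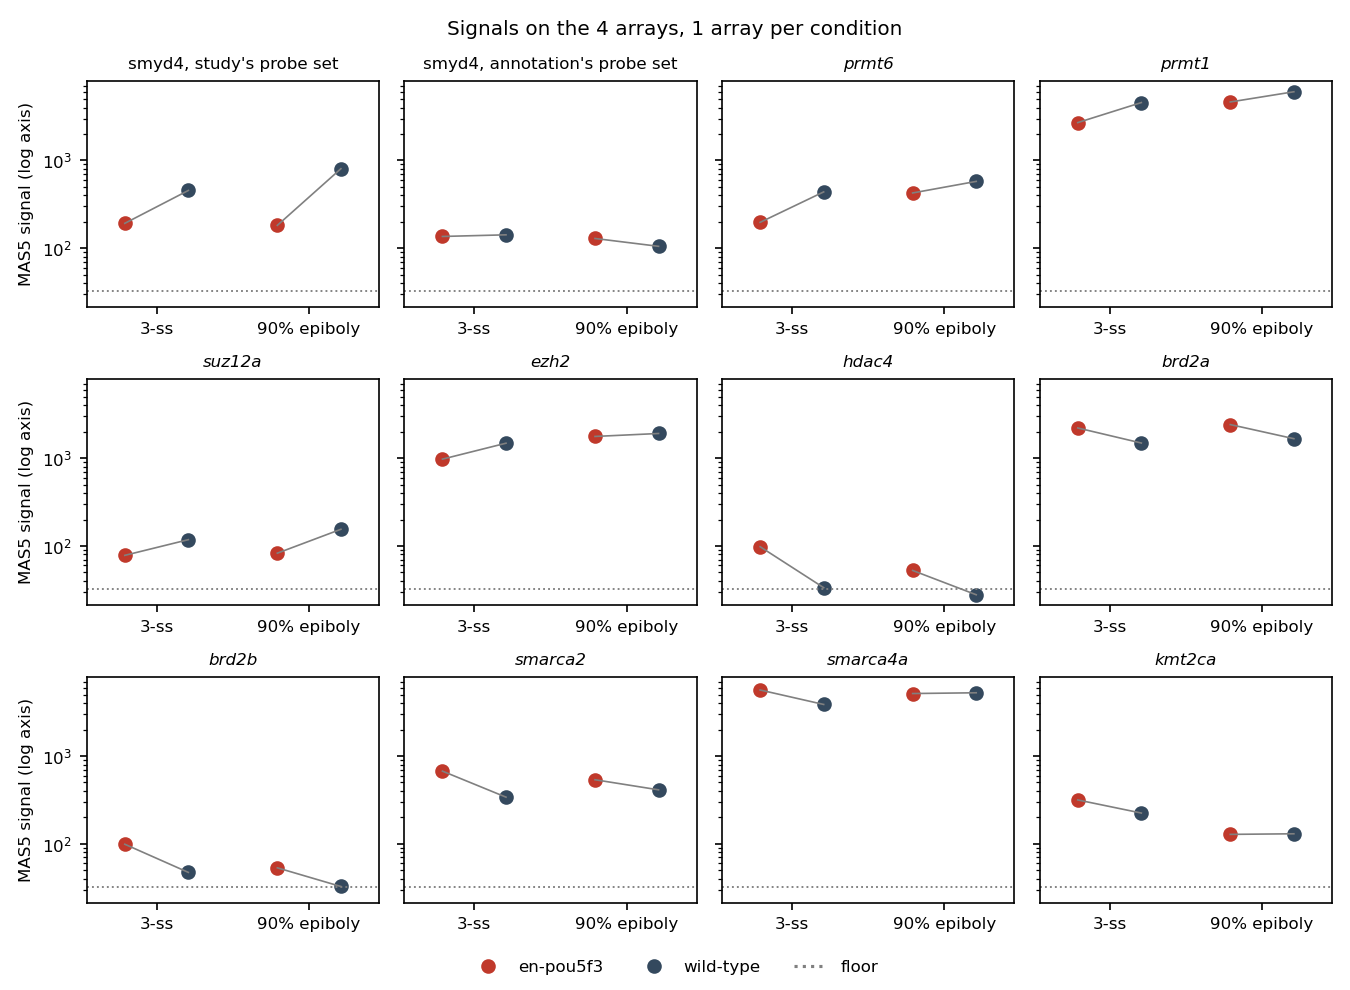
MAS5 signal (y axis, log scale) of 12 probe sets on the 4 arrays, en-pou5f3 (red) left of wild-type (dark blue) at 3-ss and at 90% epiboly; the dotted line is the floor of 32.4. Lines join the arrays of one stage and slope up to the right where the en-pou5f3 signal was lower, as for the study's smyd4 probe set (192 against 455 and 182 against 805), while the annotation's smyd4 probe set stayed between 105 and 142.

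PRC2 has 3 core proteins, the methyltransferase Ezh2 and its partners Suz12 and Eed. ezh2 had a signal of 977 in en-pou5f3 and 1484 in wild-type embryos at 3-ss, and of 1772 in en-pou5f3 and 1915 in wild-type embryos at 90% epiboly, giving log2 ratios of −0.60 and −0.11. A second ezh2 probe set had 352 in en-pou5f3 and 406 in wild-type embryos at 3-ss, with log2 ratios of −0.21 there and −0.08 at 90% epiboly, so both probe sets were lower in en-pou5f3 embryos but by different amounts at 3-ss. Zebrafish keep a pair of Suz12 genes from the whole-genome duplication of teleost fish, and these differed. suz12a had 78.2 in en-pou5f3 and 118 in wild-type embryos at 3-ss and 82.8 in en-pou5f3 and 155 in wild-type embryos at 90% epiboly, 1.51-fold and 1.87-fold lower (log2 ratios −0.59 and −0.90). suz12b had 539 in en-pou5f3 and 480 in wild-type embryos at 3-ss and 403 in en-pou5f3 and 394 in wild-type embryos at 90% epiboly, with log2 ratios of 0.17 and 0.03. eed had log2 ratios of 0.31 and −0.06. Of the PRC1 readers, cbx2 had −0.34 at 3-ss and 0.09 at 90% epiboly, cbx8a had −0.04 at 3-ss and was under the floor in both genotypes at 90% epiboly, and cbx6b was under it throughout. The median of the Polycomb genes was −0.19 over 6 genes at 3-ss and −0.06 over 5 at 90% epiboly.

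No SWI/SNF subunit reached 2-fold on the signals as deposited, but smarca2 did at 3-ss after quantile normalization (log2 ratio 1.04). At 3-ss the 7 genes had log2 ratios from 0.00 (smarce1) to 0.98 (smarca2) with a median of 0.17, and 7 of 7 were above 0, against 3707 of 7467 genes in all. After median centring or quantile normalization 6 of 7 were. smarca2 and smarca4a encode the alternative ATPases of the complex, Brm and Brg1. smarca2 had a signal of 673 in en-pou5f3 and 340 in wild-type embryos at 3-ss, 1.98-fold higher, and of 537 in en-pou5f3 and 412 in wild-type embryos at 90% epiboly (log2 ratio 0.38). Its second probe set was dim, at 48.3 in en-pou5f3 and 49.4 in wild-type embryos at 3-ss, and gave log2 ratios of −0.03 at 3-ss and 0.52 at 90% epiboly. smarca4a had 5661 in en-pou5f3 and 3873 in wild-type embryos at 3-ss and 5158 in en-pou5f3 and 5263 in wild-type embryos at 90% epiboly, so that the difference was seen at 3-ss (0.55) and not at 90% epiboly (−0.03). A second smarca4a probe set gave a log2 ratio of 0.38 at 3-ss and 0.06 at 90% epiboly. The core subunits smarcb1a, smarcb1b, smarcd1 and smarce1 lay between 0.00 and 0.17 at 3-ss and between −0.12 and 0.06 at 90% epiboly. smarcc1a, a scaffold subunit, had 0.23 at 3-ss and 0.54 at 90% epiboly, with signals of 131 in en-pou5f3 and 90.3 in wild-type embryos at 90% epiboly.

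No gene of the ISWI and Chd remodellers came near 2-fold by its brightest probe set. smarca5, the main ISWI ATPase, had a log2 ratio of 0.04 at 3-ss and −0.09 at 90% epiboly by its brightest probe set (0.37 and 0.14 at 3-ss and −0.42 and −0.29 at 90% epiboly by dimmer ones), smarca1 had 0.21 and 0.43, and smarcad1a, which helps to restore silent chromatin after replication, had −0.43 and −0.19. Among the Chd genes, chd4b, an ATPase of the NuRD repressor complex, had 0.27 at 3-ss and 0.30 at 90% epiboly by its brightest probe set, and its duplicate chd4a had 0.01 and −0.22. The other 2 chd4b probe sets ran the other way, with −0.14 and −0.52 at 3-ss and −0.16 and −0.07 at 90% epiboly. chd1l, a remodeller recruited to DNA breaks, had −0.27 at 3-ss and 0.40 at 90% epiboly. chd1 had 0.26 and 0.36 by its brightest probe set, and 0.15 at 3-ss and a bound of 0.75 at 90% epiboly by a dim second one. chd7 had 0.11 and 0.06. chd2 had −0.17 at 3-ss by its brightest probe set but −0.89 by its second one, whose signal was 236 in en-pou5f3 and 438 in wild-type embryos.

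Histone deacetylases remove acetyl groups and act mostly as corepressors. hdac4, a class IIa member that binds Mef2 factors in muscle and elsewhere, had a signal of 98.1 in en-pou5f3 and 33.5 in wild-type embryos at 3-ss, and of 52.6 in en-pou5f3 and 27.8 in wild-type embryos at 90% epiboly. It rose 2.93-fold at 3-ss (log2 ratio 1.55), where the wild-type signal lay just over the floor, and was at least 1.62-fold higher at 90% epiboly. Its en-pou5f3 signal was little over the highest control signal of that array at 3-ss (88.6) and under it at 90% epiboly (65.5). How far the higher control signals bear on this rise was not tested. With the floor added to both signals the log2 ratio at 3-ss was 0.99, under 2-fold. hdac9b, also of class IIa, had 37.0 in en-pou5f3 and 22.6 in wild-type embryos at 3-ss and 47.8 in en-pou5f3 and 17.6 in wild-type embryos at 90% epiboly, at least 1.14-fold and at least 1.47-fold higher. Its en-pou5f3 signals were under the highest control signals of their arrays, 88.6 at 3-ss and 65.5 at 90% epiboly. hdac1, the main class I enzyme of early embryos, was level, with 6482 in en-pou5f3 and 6033 in wild-type embryos at 3-ss (0.10) and 6938 in en-pou5f3 and 6868 in wild-type embryos at 90% epiboly (0.01). hdac3, hdac6, hdac8 and hdac10 lay between −0.19 and 0.19 at 3-ss and between −0.37 and 0.09 at 90% epiboly, and hdac11 was under the floor. A dim second hdac3 probe set had −0.58 at 3-ss and −0.31 at 90% epiboly. The sirtuins, which use NAD to remove acyl groups, had log2 ratios of 0.17 (sirt2), 0.18 (sirt6) and a bound of 0.18 (sirt3) at 3-ss. At 90% epiboly sirt2 had 0.24 and sirt6 had 0.11.

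The bromodomain genes held the other higher gene. brd2a and brd2b are duplicates that encode a BET protein, which tethers transcription elongation factors to acetylated histones, and both had higher signals in en-pou5f3 embryos at both stages. brd2b had 98.8 in en-pou5f3 and 47.2 in wild-type embryos at 3-ss, and 53.2 in en-pou5f3 and 32.6 in wild-type embryos at 90% epiboly. It rose 2.09-fold at 3-ss and was 1.63-fold higher at 90% epiboly, and with the floor added its log2 ratio at 3-ss was 0.72. As for hdac4, the en-pou5f3 signal was little over the highest control signal at 3-ss (88.6) and under it at 90% epiboly (65.5). brd2a had 2213 in en-pou5f3 and 1491 in wild-type embryos at 3-ss and 2420 in en-pou5f3 and 1671 in wild-type embryos at 90% epiboly, log2 ratios of 0.57 and 0.53. Its other 3 probe sets were above 0 as well, with log2 ratios of 0.23, 0.38 and a bound of 1.53 at 3-ss and of 0.20, 0.07 and 1.00 at 90% epiboly. brd9, a subunit of a SWI/SNF variant, had 149 in en-pou5f3 and 224 in wild-type embryos at 3-ss, a log2 ratio of −0.59, and −0.21 at 90% epiboly. By their brightest probe sets the duplicates brd3a and brd3b had −0.13 and 0.31 at 3-ss and −0.05 and 0.25 at 90% epiboly. Other bright brd3b probe sets were level, with −0.05 and 0.09 at 3-ss and 0.01 and −0.00 at 90% epiboly. A dimmer brd3a probe set had −0.31 at 3-ss and 0.03 at 90% epiboly. brd1b, brd8b and brdt lay between −0.31 and −0.04 at 3-ss and between −0.39 and 0.04 at 90% epiboly by their brightest probe sets. A second brdt probe set had 120 in en-pou5f3 and 79.7 in wild-type embryos at 3-ss (0.59) and 91.5 in en-pou5f3 and 50.4 in wild-type embryos at 90% epiboly (0.86), past 1.5-fold at both stages where the brightest was level. brd8a was under the floor.

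The 4 DNA methyltransferase genes had log2 ratios below 0 at 3-ss, also after quantile normalization, and none reached 1.5-fold. Of all genes 3760 of 7467 were below 0 at that stage. dnmt3bb.3 was the lowest, with a signal of 156 in en-pou5f3 and 222 in wild-type embryos at 3-ss (−0.51) and 154 in en-pou5f3 and 209 in wild-type embryos at 90% epiboly (−0.43). dnmt1, which copies methylation after replication, had −0.13 at 3-ss and 0.07 at 90% epiboly, and dnmt3ba and dnmt3bb.2, de novo enzymes, had −0.25 and −0.24 at 3-ss and −0.02 and 0.10 at 90% epiboly. A dimmer dnmt3ba probe set ran against the brightest at 3-ss, with 0.47. Beside them, 37 DNA replication genes had a median of −0.01 at 3-ss and 0.01 at 90% epiboly, with 0 past 2-fold in either direction.

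No demethylase, acetyltransferase or HP1 gene reached 1.5-fold between the genotypes by its brightest probe set. Of the 12 lysine demethylases kdm6ba, an eraser of the PRC2 mark, had a signal of 325 in en-pou5f3 and 222 in wild-type embryos at 3-ss (log2 ratio 0.55), against 383 in en-pou5f3 and 372 in wild-type embryos at 90% epiboly (0.04). kdm6al, its relative, had 0.08 at 3-ss and 0.42 at 90% epiboly by its brightest probe set. Its other probe sets had a bound of 0.07 and a ratio of −0.40 at 90% epiboly. kdm2aa and kdm4b were at −0.33 each at 3-ss and at −0.30 and −0.25 at 90% epiboly by their brightest probe sets. Dimmer kdm4b probe sets ran the other way at 3-ss, with 0.28 and a bound of 0.22. kdm1a, kdm5ba, kdm5bb, kdm5c, kdm7aa and kdm8 lay between −0.27 and 0.08 at 3-ss and between −0.02 and 0.37 at 90% epiboly. kdm4c was just over the floor at 3-ss and under it at 90% epiboly. Of the acetyltransferases kat8, which acetylates histone H4, had −0.44 at 3-ss and −0.13 at 90% epiboly, kat7b, of the complex that acetylates histones at replication origins, had 0.31 and 0.23, and kat5a and kat14 stayed between 0.01 and 0.15 at both stages. No gene named kat2 was measured. The HP1 genes cbx1a, cbx1b, cbx3b and cbx5, whose proteins bind methylated histones in heterochromatin, lay between −0.01 and 0.11 at 3-ss and between −0.34 and 0.05 at 90% epiboly.

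The comparisons at 3-ss and at 90% epiboly share no array. Over the 78 genes measured on all 4 arrays Pearson's r between the log2 ratios at the 2 stages was 0.63 and Spearman's rho 0.51. Without smyd4 they were 0.55 and 0.49 over 77 genes, and over 6566 genes in all 0.43 and 0.33. These are correlations across genes, each gene giving both ratios from the same probe set, and genes are not independent replicates. The same sign was seen for 51 of 78 chromatin genes (65.4%), against 4064 of 6566 genes in all (61.9%). None of the 78 had a log2 ratio that differed by 1 or more between the stages, against 3.73% of all genes. The difference at 3-ss minus that at 90% epiboly was 0.90 for smyd4, −0.75 for smyd2a and −0.72 for prmt6, and its SD across the 78 genes was 0.32.

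Several duplicate pairs could be set side by side in each genotype comparison. brd2a and brd2b were both higher in en-pou5f3 embryos, and suz12a and suz12b differed as given above. The pair kdm5ba and kdm5bb had 0.03 and −0.27 at 3-ss and 0.27 and 0.16 at 90% epiboly. setdb1a and setdb1b, which encode an enzyme that silences repeats, had 0.08 and −0.02 at 3-ss and 0.31 and −0.07 at 90% epiboly. smarcb1a and smarcb1b had 0.13 and 0.17 at 3-ss and 0.05 and −0.12 at 90% epiboly. cbx1a and cbx1b had 0.11 and −0.01 at 3-ss and 0.05 and −0.34 at 90% epiboly. The members of these last pairs differed at 3-ss by less than the SD between all probe sets of one gene (0.36). For kdm5ba and kdm5bb the difference was more than the SD for probe sets over the median signal (0.25). At 90% epiboly the cbx1 and setdb1 pairs differed by more than the SD between all probe sets (0.32). This SD is that of single probe sets about the mean of their gene, and a difference between single probe sets spreads more widely. None of these pair differences is therefore shown to lie beyond the spread.

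**Figure D3:**
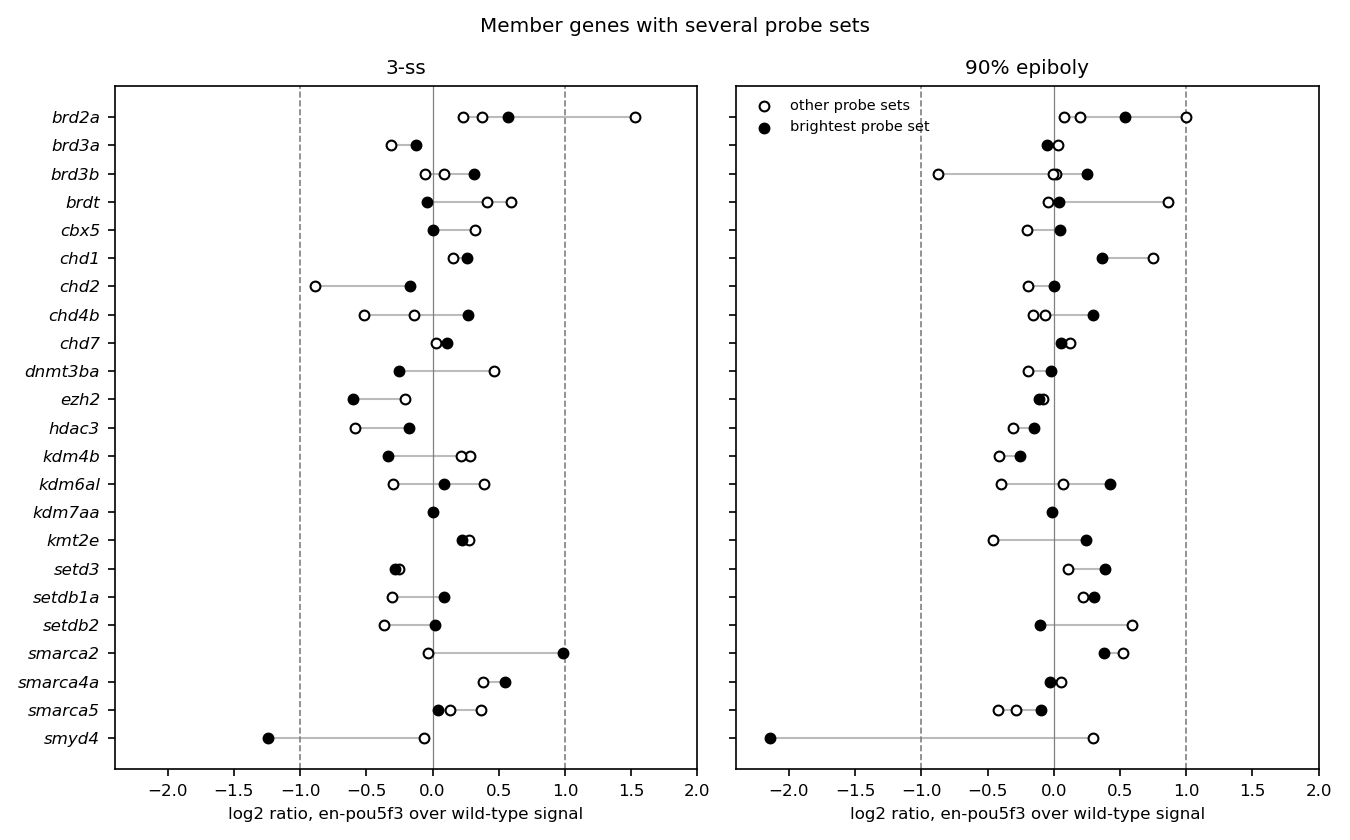
Log2 ratio between the genotypes, en-pou5f3 signal over wild-type signal (x axis), for the 23 chromatin genes with more than 1 probe set (rows), at 3-ss (left) and 90% epiboly (right), with the brightest probe set filled and the others open; dashed lines mark 2-fold and probe sets under the floor in both genotypes are not drawn. The points of smyd4 lie farthest apart, at −2.15 and 0.30 at 90% epiboly, and the 4 of brd2a all lie right of 0.

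For chromatin genes with several probe sets, the SD of the log2 ratio between them was 0.38 at 3-ss and 0.45 at 90% epiboly. Both values count the 2 smyd4 probe sets as 1 gene, though which of them detects smyd4 was not settled. These 2 differed by 1.18 at 3-ss and 2.45 at 90% epiboly, which raises the SD, most of all at 90% epiboly. The SD across all measured chromatin genes was 0.41 and 0.38 at these stages. Of 30 further probe sets of 22 genes, 22 were within 1.5-fold of the ratio of the brightest one at 3-ss and 24 at 90% epiboly. At 2-fold or more apart were those of smarca2 and smyd4 at 3-ss and those of brd3b and smyd4 at 90% epiboly. The brd3b probe set concerned had signals of 29.4 in en-pou5f3, under the floor, and 59.5 in wild-type embryos at 90% epiboly. Its log2 ratio was a bound of −0.88, against 0.25 for the brightest.

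Between the stages few chromatin genes passed 2-fold. In en-pou5f3 embryos prmt3, kmt2ca and hdac6 rose and prmt6 fell at 3-ss against 90% epiboly, 3 higher and 1 lower of 83, beside 7.59% of all genes higher and 3.22% lower. In wild-type embryos prmt3 and hdac6 rose and 0 genes fell, 2 higher and 0 lower of 81, beside 8.24% of all genes higher and 3.82% lower. Within 1.5-fold lay 68 of 83 (81.9%) in en-pou5f3 embryos, against 72.6% of all genes, and 72 of 81 (88.9%) in wild-type embryos, against 71.4%. At 1.5-fold 8 genes were higher and 7 lower in en-pou5f3 embryos (16.5% and 10.9% of all genes), and 7 were higher and 2 lower in wild-type embryos (17.4% and 11.2% of all genes). The SD between probe sets of one gene was 0.40 in en-pou5f3 and 0.44 in wild-type embryos for these ratios. The median log2 ratio of 3-ss over 90% epiboly was −0.05 in en-pou5f3 and −0.08 in wild-type embryos, against 0.02 for all genes in each. Median centring of the arrays moved the median of all genes to −0.12 in en-pou5f3 and −0.13 in wild-type embryos, and the chromatin genes then lay 0.07 and 0.12 below it.

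prmt3, a mostly cytoplasmic arginine methyltransferase of a ribosomal protein, had a signal of 337 at 3-ss and 95.1 at 90% epiboly in en-pou5f3 embryos, 3.55-fold higher, and of 302 at 3-ss and 98.3 at 90% epiboly in wild-type embryos, 3.07-fold higher. hdac6, a cytoplasmic deacetylase of tubulin, had 409 at 3-ss and 180 at 90% epiboly in en-pou5f3 embryos (2.27-fold), and 466 at 3-ss and 169 at 90% epiboly in wild-type embryos (2.75-fold). Both genes thus separated the stages in the same way in either genotype. kmt2ca rose 2.48-fold in en-pou5f3 embryos and was 1.73-fold higher in wild-type embryos. setd3 had 618 at 3-ss and 495 at 90% epiboly in en-pou5f3 embryos (log2 ratio 0.32), and 751 at 3-ss and 379 at 90% epiboly in wild-type embryos (0.99, 1.98-fold). The genotypes were not tested against each other here.

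In the other direction, prmt6 fell 2.16-fold between the stages in en-pou5f3 embryos and was 1.32-fold lower at 3-ss in wild-type embryos. prmt1, ezh2, cbx2, smarcc1a, dnmt3bb.2 and kdm5bb were 1.5-fold or more lower at 3-ss in en-pou5f3 embryos, with log2 ratios from −0.90 (dnmt3bb.2) to −0.62 (kdm5bb), against −0.55 to −0.19 for these 6 genes in wild-type embryos. The 6 were picked by their en-pou5f3 value, so the smaller wild-type values are no test of a difference, and a second ezh2 probe set gave −0.86 in en-pou5f3 and −0.73 in wild-type embryos. smyd4 by the study's probe set had 0.08 in en-pou5f3 and −0.82 in wild-type embryos, and kdm6ba had −0.24 in en-pou5f3 and −0.75 in wild-type embryos. cbx8a was over the floor at 3-ss alone, at least 1.85-fold higher in en-pou5f3 and at least 1.90-fold higher in wild-type embryos. Each stage comparison shares its arrays with the genotype comparisons, so that a gene with a low en-pou5f3 signal at 3-ss, such as prmt6, counts as lower in both.

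**Figure D4:**
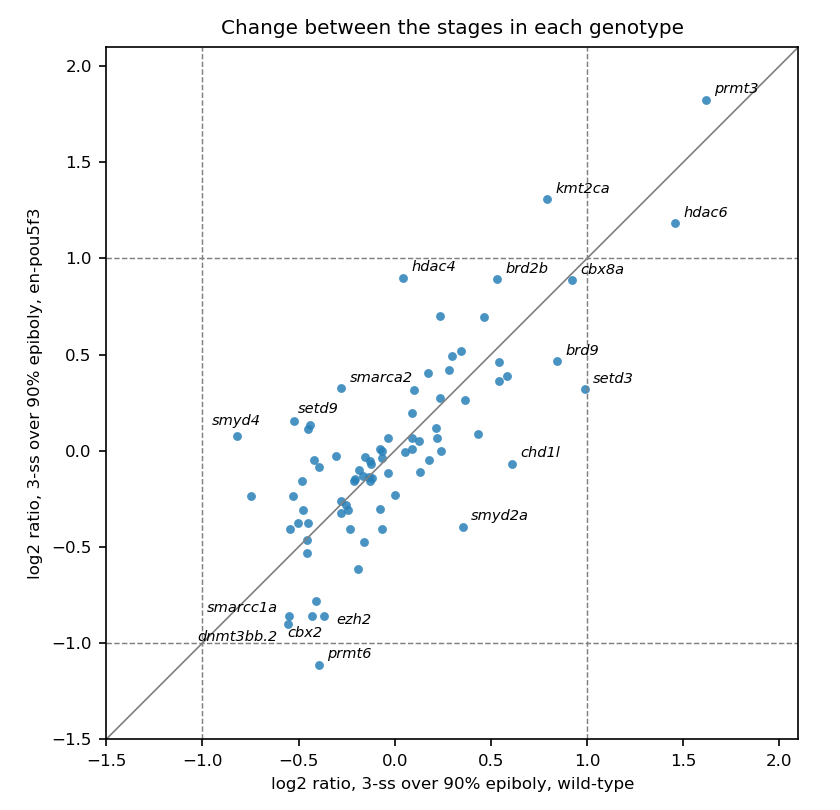
Log2 ratio of 3-ss over 90% epiboly signal in en-pou5f3 embryos (y axis) against wild-type embryos (x axis) for chromatin genes measured in both; the diagonal marks equal change, dashed lines mark 2-fold, and the values of hdac4, cbx8a and kdm4c rest on a signal under the floor. prmt3 and hdac6 pass 2-fold in both genotypes, and prmt6 passes it in en-pou5f3 embryos alone at −1.11.

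By class, the log2 ratio of 3-ss over 90% epiboly was below 0 for 5 of 7 SWI/SNF subunits in en-pou5f3 embryos, with a median of −0.05, and for 7 of 7 in wild-type embryos, with a range from −0.55 to −0.13 and a median of −0.28. Of all genes 3588 of 7453 were below 0 in en-pou5f3 and 3563 of 7411 in wild-type embryos. The 7 of 7, counted by brightest probe sets, held after quantile normalization. smarca4a had 0.13 in en-pou5f3 and −0.44 in wild-type embryos between the stages by its brightest probe set. Its second probe set had 0.33 in en-pou5f3 and 0.003 in wild-type embryos, so the fall in wild-type embryos rested on 1 probe set. smarca5 of the ISWI class had −0.41 in en-pou5f3 and −0.54 in wild-type embryos. The Chd genes had a median of 0.10 in en-pou5f3 and 0.27 in wild-type embryos, and the HP1 genes −0.15 in en-pou5f3 and −0.24 in wild-type embryos. With the probe set of the largest change the Chd median in en-pou5f3 embryos was −0.40, so its sign rested on the choice of probe set. In wild-type embryos the lowest Chd median under any alternative was 0.12. dnmt1 was higher at 3-ss, with log2 ratios of 0.39 in en-pou5f3 and 0.58 in wild-type embryos, and dnmt3bb.2 was lower, with −0.90 in en-pou5f3 and −0.55 in wild-type embryos. Within brdt, a gene best known from the male germ line, a dim probe set gave −0.57 in en-pou5f3 and −1.03 in wild-type embryos where the brightest gave 0.46 and 0.54, so its change between the stages has no settled direction.

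Of 180 genes that act beside these classes but carry other names, 102 were on the array, among them subunits of BAF, NuRD, PRC1 and PRC2, histone chaperones and further methyltransferases. aebp2, which encodes a PRC2 cofactor, was the one gene past 2-fold between the genotypes. Its signal was 85.1 in en-pou5f3 and 180 in wild-type embryos at 3-ss and 92.1 in en-pou5f3 and 192 in wild-type embryos at 90% epiboly, and it fell by 1.08 and 1.06 on the log2 scale. Counts of 1 lower and 0 higher of 100 measured genes at each stage and medians of 0.02 at 3-ss and 0.03 at 90% epiboly placed this list, too, near the level of all genes. hells, a remodeller needed for DNA methylation, had 462 in en-pou5f3 and 701 in wild-type embryos at 3-ss and 470 in en-pou5f3 and 684 in wild-type embryos at 90% epiboly (log2 ratios −0.60 and −0.54).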

How the data were processed

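RNA extracted from single whole embryos of each condition was pooled by genotype, and 250 ng of RNA per pool was hybridised to 1 Affymetrix zebrafish array. The deposited intensity values are linear MAS5 signals, which the authors computed from the scans after correcting background and scaling each array to a common mean; the software version is not given in the sources used here. No column of per-sample values was left unused.

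From the 15617 probe sets, 115 manufacturer controls were left out. Symbols came from the array annotation (135 probe sets with several symbols were not named; 4680 are not listed), and 88 of the 89 genes had a gene ID, all found under the same symbol in the current gene table. Signals were floored at 32.4, log2 ratios taken, and 2-fold used as the threshold, the fold of the study's stricter criterion. The study took its signal log ratios from its array software and had a change call by the Wilcoxon signed-rank test. Neither was used here, so the calls are not those of the study. A fold with 1 signal below the floor is a bound. Each class and list was described by counts and its median. With 1 array per condition there was no test, and the number of arrays limits the precision. Ratios and counts were computed in Python 3.11.15 (pandas 2.3.3, numpy 2.4.6) and plotted with matplotlib 3.10.9; the ratio code was tested on simulated data.

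Genes were named if they were smyd4, passed 2-fold in a comparison, had one of the 2 largest rises or falls of their class, had probe sets that disagreed by 2-fold, belonged to a duplicate pair or were the main catalytic members; others were named to account for every gene, and partners outside the rule, such as hells, after their values were seen. The members, classes and lists were chosen with earlier results of these data known. Alternatives were no floor, a lower floor at the control median of 6.45, quantile normalization, median centring, a floor that was added and not used as a minimum, other treatments of dim or shared probe sets, other choices among a gene's probe sets, and thresholds of 1.5-fold and 3-fold. The annotation's probe set for smyd4 was added after the data were seen.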

Additional observations from a re-analysis of the deposited data

How the results depend on the processing

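With 1 array per condition, no array could be left out in turn. No paired analysis was possible because each condition had 1 array and no replicate numbers. Of the counts and medians over all chromatin genes, 112 alternative values stayed near the reported one and 34 moved; of values for single genes and classes 1159 stayed, 77 moved and 1 value past 2-fold changed direction, that of smyd4 at 90% epiboly, 0.30 by the annotation's probe set. Counting values under 2-fold as well, the sign differed from the reported one under at least 1 alternative for 8 of 72 single-gene values and 17 of 52 class medians, for instance for smarca2 between the stages in en-pou5f3 embryos (0.32, against −0.78 by the probe set with the largest change). With the annotation's probe set for smyd4, chosen after seeing the data, 1 gene was lower in en-pou5f3 embryos at 3-ss and 0 at 90% epiboly. Averaging the log2 ratios over a gene's probe sets also gave 1 and 0. At 1.5-fold, lower and higher genes in en-pou5f3 embryos numbered 7 and 3 at 3-ss and 3 and 2 at 90% epiboly, and genes lower and higher at 3-ss numbered 7 and 8 in en-pou5f3 and 2 and 7 in wild-type embryos. At 3-fold, 0 were lower and 0 higher in en-pou5f3 embryos at 3-ss, and 0 were lower at 3-ss in en-pou5f3 embryos while 1 was higher in each genotype. Without a floor 6 genes were lower in en-pou5f3 embryos at 3-ss and 4 higher at 90% epiboly, 3 were lower and 6 higher between the stages in en-pou5f3 embryos, 8 were higher in wild-type embryos, and 5 differed by 1 or more between the stages; the lower floor gave 6 lower at 3-ss, 4 higher at 90% epiboly, 3 lower between the stages in en-pou5f3 and 7 higher in wild-type embryos. Each gene added this way had at least 1 signal under 32.4. The floor added to both signals left 0 higher in en-pou5f3 embryos at 3-ss and 0 lower between the stages in en-pou5f3 embryos. Median centring gave 5 and quantile normalization 2 lower between the stages in en-pou5f3 embryos, and centring moved the medians between the stages to −0.19 in en-pou5f3 and −0.25 in wild-type embryos, as all genes moved. Taking the probe set with the largest change gave 1 gene lower between the stages in wild-type embryos and 1 that differed by 1 or more between the stages. Where no cause is named, the cause was not tested.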

Other observations

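Among chromatin genes outside the symbol rule several differed by 2-fold or more between the stages. padi2, which encodes an enzyme that turns histone arginine into citrulline, had a signal of 533 at 3-ss and 52.3 at 90% epiboly in en-pou5f3 embryos, and of 510 at 3-ss and 58.0 at 90% epiboly in wild-type embryos, with log2 ratios of 3.35 in en-pou5f3 and 3.14 in wild-type embryos. nsd1a, a histone H3 methyltransferase gene, had 833 at 3-ss and 178 at 90% epiboly in en-pou5f3 embryos, and 577 at 3-ss and 159 at 90% epiboly in wild-type embryos. gadd45aa, a stress gene tied to DNA repair, had log2 ratios of 2.11 in en-pou5f3 and 1.84 in wild-type embryos between the stages. In the other direction anp32e, a chaperone of the histone variant H2A.Z, had 4640 at 3-ss and 11461 at 90% epiboly in en-pou5f3 embryos, and 4932 at 3-ss and 11927 at 90% epiboly in wild-type embryos. Of that list 3 genes were 2-fold higher and 1 lower of 101 measured at 3-ss in en-pou5f3 embryos, beside 7.59% of all genes higher and 3.22% lower, and 4 were higher and 1 lower of 98 in wild-type embryos, beside 8.24% and 3.82% of all genes.

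bmi1a, a core PRC1 gene, was below 0 in both genotype comparisons and above 0 in both stage comparisons without reaching 2-fold. Its signal was 916 in en-pou5f3 and 1255 in wild-type embryos at 3-ss, and 495 in en-pou5f3 and 683 in wild-type embryos at 90% epiboly. Its duplicate bmi1b was above 0 in both genotype comparisons, with log2 ratios of 0.33 at 3-ss and 0.26 at 90% epiboly. These genes were picked after their values were seen.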
